A study of Mus musculus with 8 samples.

Results

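The protein kinase A (PKA) system of the sperm tail was followed through mouse spermatogenesis with 10 genes: the catalytic subunits Prkaca and Prkacb, the regulatory subunits Prkar1a, Prkar2a and Prkar2b, the soluble adenylyl cyclase Adcy10, the anchoring proteins Akap1, Akap3 and Akap4, and the anchor-binding protein Ropn1. All probe sets annotated to 1 of these genes and to no other gene were taken, which gave 24 of the 45037 probe sets of the array type that are not controls (10 of 18193 named genes). The 4 groups followed development: spermatogonia of type A and of type B, which divide by mitosis, then pachytene spermatocytes in meiotic prophase, then haploid round spermatids, each as 2 arrays of the Mouse 430 2.0 type. All groups were untreated total RNA from mice labelled BL/6-129, and the duplicates came from separate germ cell preparations. The sources used here give no age of the mice and no purification method or purity.

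PKA is held inactive as a complex of a pair of regulatory and a pair of catalytic subunits, and cyclic AMP (cAMP) releases the catalytic subunits. A-kinase anchoring proteins (AKAPs) bind the regulatory subunits and fix the enzyme at one place in the cell. In sperm, cAMP comes mainly from the soluble adenylyl cyclase, which responds to bicarbonate and calcium, and much of the PKA sits on the fibrous sheath, a cytoskeletal sleeve around the principal piece of the tail that is built largely of AKAP4 and AKAP3. PKA activity in the tail is needed for motility and for capacitation, the maturation that makes sperm able to fertilize.

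Values are MAS5 signals, in arbitrary units of brightness scaled to the same average on every array. Each change is a difference of log2(signal + 16) with the standard error (± SE) of a limma fit over all 8 arrays, and a change was called at a Benjamini-Hochberg adjusted p under 0.05 over the 28623 probe sets tested. Of the 24 probe sets, 23 passed the filter on low signal. The exception was Prkacb 1457197_at, at 59.7 and 21.0 in type A, 22.1 and 36.8 in type B, 16.3 and 7.8 in pachytene cells and 10.5 and 13.0 in spermatids. Median signals of whole arrays were 33.7 to 37.3 in the later cells and 41.5 to 51.9 in spermatogonia, and log2 signals of duplicates correlated across probe sets at r = 0.933 in type A, 0.900 in type B, 0.972 in pachytene cells and 0.978 in spermatids. Labels were checked against marker genes, whose signals were summed per array: 7 spermatogonial markers summed to 662.3 to 1163.6 on the later arrays and 4625.3 to 7202.6 on spermatogonial ones. The 7 spermatid markers summed to 124.5 and 143.5 in type A, 123.8 and 1987.1 in type B, 3788.1 and 4462.0 in pachytene cells and 22712.7 and 27028.7 in spermatids. The 7 pachytene markers summed to 2240.1 and 1928.4 in type A, 3363.4 and 8917.0 in type B, 16305.2 and 16982.8 in pachytene cells and 16847.5 and 17328.1 in spermatids, so that their sum did not set pachytene cells apart from spermatids. Singly, 2 of the 7 were called lower and 0 higher in spermatids than in pachytene cells, beside 15.7% and 11.7% of all tested probe sets. Piwil1 read 1791.5 and 1620.7 in pachytene cells and 309.3 and 230.9 in spermatids. Pgk2 went the other way, at 716.9 and 847.8 in pachytene cells and 2750.0 and 3123.2 in spermatids. On the pachytene and spermatid sums type B replicate 2 stood apart from its duplicate for genes of later stages, and results that rest on it are given with and without it. In these bulk samples, fewer cells of a type and less RNA per cell cannot be told apart. Statements below that arrays of different groups do or do not overlap only describe the probe set named. With 2 arrays per group such separation is frequent by chance, and its share over all probe sets was not counted.

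Akap3 and Akap4, whose proteins are of related sequence, are shown first through the DNA at their starts, because both rose together and because a stretch of their promoters was identical. Windows of 300 bases, 250 before and 50 after each annotated start, came from RefSeq (GRCm38.p6), which held 22 windows for the 10 genes. The longest run of letters shared by windows of different genes among these 10, over 207 pairs of windows and both strands, was 20 bases long and joined Akap3 and Akap4, on the same strand. The next longest, between Prkacb and Prkar2b, had 16 bases. Of 32851 windows of all mouse genes in the table, 2 (0.00609%) held the run of 20, those of Akap3 and Akap4. In the 2 sequences below, capitals mark this run and any further copy of its last 8 letters.
shared run: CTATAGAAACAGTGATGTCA
Akap3, chr6:126852848-126853147, plus strand: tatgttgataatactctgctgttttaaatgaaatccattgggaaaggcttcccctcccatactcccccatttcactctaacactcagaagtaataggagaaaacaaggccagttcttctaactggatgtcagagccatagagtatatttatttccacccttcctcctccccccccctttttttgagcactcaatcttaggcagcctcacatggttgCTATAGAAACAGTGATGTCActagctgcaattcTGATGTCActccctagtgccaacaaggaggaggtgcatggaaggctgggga
Akap4, chrX:7067265-7067564, plus strand: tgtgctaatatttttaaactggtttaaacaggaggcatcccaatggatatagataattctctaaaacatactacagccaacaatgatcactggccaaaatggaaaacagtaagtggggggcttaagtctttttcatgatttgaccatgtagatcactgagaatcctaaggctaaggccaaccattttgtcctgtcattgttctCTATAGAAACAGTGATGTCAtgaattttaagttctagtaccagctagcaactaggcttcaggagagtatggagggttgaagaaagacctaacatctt

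Counted from the annotated start, the shared run spans bases -34 to -15 in Akap3 and -47 to -28 in Akap4. It ends in TGATGTCA, which the Akap3 window holds again from base -1 to base 7. Akap4 has another window, of a later annotated start, that holds neither the run nor these 8 letters. Those 8 letters, on either strand, are in 1189 of the 32851 windows (3.62%), and among the 10 genes in those of Akap3 and Akap4 alone. They differ by 1 letter from the cAMP response element TGACGTCA, the binding site of CREB and CREM, which lies in 588 windows (1.79%) and among the 10 genes only in Prkar1a. The shorter TGACG, contained in that element, lies in 20.8% of windows and, among these genes, in those of Prkaca, Prkacb, Prkar1a and Prkar2a. Letter matches describe the sequences and show no binding. The run was searched for after the sequences had been seen. Prkar1a has several windows, and 2 of them, which overlap, hold TGACGTCA. For the start of the window not printed, the same site lies at bases 39 to 46. The other is printed for comparison, with TGACGTCA at bases -49 to -42 and the other TGACG match in capitals.
Prkar1a, chr11:109650699-109650998, plus strand: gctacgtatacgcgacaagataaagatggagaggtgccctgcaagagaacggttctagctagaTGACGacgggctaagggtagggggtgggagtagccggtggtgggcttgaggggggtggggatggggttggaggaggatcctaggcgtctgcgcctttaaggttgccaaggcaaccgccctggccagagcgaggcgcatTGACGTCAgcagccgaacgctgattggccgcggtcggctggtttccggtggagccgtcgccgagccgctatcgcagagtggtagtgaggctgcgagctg

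Akap4, the most abundant protein of the fibrous sheath, is on the X chromosome and had 3 probe sets. Probe set 1419019_a_at read 1.6 and 1.2 in type A spermatogonia, 1.5 and 139.9 in type B, 248.8 and 195.5 in pachytene spermatocytes and 3828.3 and 3864.7 in round spermatids. Probe set 1451661_at read 47.8 and 15.6 in type A, 39.7 and 92.3 in type B, 261.1 and 192.7 in pachytene cells and 2592.1 and 2901.6 in spermatids. For 1451662_x_at the signals were 5.0 and 6.2 in type A, 1.6 and 96.7 in type B, 193.2 and 169.7 in pachytene cells and 2190.7 and 2634.8 in spermatids. The suffix _x_at marks probes that can also bind related transcripts of other genes. On all 3 probe sets both spermatid arrays lay above both pachytene arrays, and these above all 4 spermatogonial arrays. Spermatids exceeded type A cells by 7.79 ± 0.82, 5.94 ± 0.41 and 6.81 ± 0.70 log2 for the 3 probe sets in this order (limma adjusted p = 0.000138, 3.27e-05 and 0.000129). The step between spermatids and pachytene cells was 4.03 ± 0.82, 3.52 ± 0.41 and 3.62 ± 0.70. For 1419019_a_at the call of that step was lost without pachytene replicate 2 or spermatid replicate 1 or 2, while its size stayed at 3.87, 4.04 and 4.02. For 1451662_x_at it was lost without spermatid replicate 2, at a size of 3.48. With a pseudocount of 4 neither of them was called in that step (limma adjusted p = 0.0535 and 0.0508). The standard errors are estimated over all 8 arrays, including the type B duplicates, which read 1.5 and 139.9 on 1419019_a_at.

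Pachytene cells exceeded type A cells by 3.77 ± 0.82, 2.42 ± 0.41 and 3.19 ± 0.70 log2 for the same Akap4 probe sets (limma adjusted p = 0.00517, 0.00159 and 0.00551). The X chromosome is known to be silenced in pachytene spermatocytes, and most X-linked probe sets went the other way in this comparison. Of 783 tested X-linked probe sets, 579 (73.9%) were lower and 26 (3.32%) higher in pachytene than in type A cells, and the 3 of Akap4 belonged to the 26. On the pachytene arrays these 3 stood at 5.08% to 9.51% of their own spermatid mean. The medians of 7 spermatid marker genes there were 8.48% and 9.1%. Whether spermatid RNA in the pachytene preparations had a part in the Akap4 signal was not tested. In spermatids against pachytene cells, 188 (24%) X-linked probe sets were higher, against 11.8% of the 23621 autosomal ones.

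Akap3, which joins the sheath before AKAP4 does and binds PKA and ropporin, followed the same order of stages. Probe set 1456591_x_at read 13.3 and 12.3 in type A spermatogonia, 22.2 and 208.6 in type B, 651.4 and 311.5 in pachytene cells and 3429.9 and 3719.5 in spermatids. Probe set 1421531_at read 26.6 and 20.6 in type A, 22.8 and 92.9 in type B, 226.3 and 145.0 in pachytene cells and 2326.0 and 2220.9 in spermatids. No spermatid array overlapped a pachytene one, and no pachytene array a spermatogonial one. Spermatids were 6.96 ± 0.72 and 5.86 ± 0.45 log2 above type A cells for the 2 probe sets in this order (limma adjusted p = 0.000128 and 4.17e-05). Against pachytene cells the spermatid excess was 2.94 ± 0.72 and 3.53 ± 0.45. The first of these was lost without pachytene replicate 2 or either spermatid array (limma adjusted p = 0.0877 to 0.11).

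Ropn1 encodes ropporin, a fibrous sheath protein with a fold like the docking part of a PKA regulatory subunit. Its 1 probe set, 1422543_at, read 28.4 and 53.2 in type A spermatogonia, 49.8 and 124.5 in type B, 210.1 and 182.5 in pachytene cells and 2282.1 and 3026.3 in spermatids. Spermatid and pachytene arrays did not overlap with each other or with the spermatogonial arrays, while types A and B overlapped. The excess was 5.58 ± 0.38 log2 in spermatids against type A cells (limma adjusted p = 3.25e-05), 3.64 ± 0.38 in spermatids against pachytene cells and 1.93 ± 0.38 in pachytene against type A cells.

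Adcy10, the soluble adenylyl cyclase, rose both at the pachytene and at the spermatid stage. Its probe set 1439613_at read 54.4 and 45.8 in type A, 49.1 and 76.5 in type B, 244.2 and 222.7 in pachytene cells and 1117.9 and 1032.3 in spermatids. Pachytene cells were 1.92 ± 0.23 log2 above type A (limma adjusted p = 0.000377) and 1.68 ± 0.23 above type B cells, and spermatids were a further 2.13 ± 0.23 above pachytene cells (0.000532). These calls held in every alternative run. Between types B and A the arrays overlapped (0.23 ± 0.23 in type B against type A, limma adjusted p = 0.759, and -0.14 with centring on ribosomal protein genes).

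**Figure D1:**
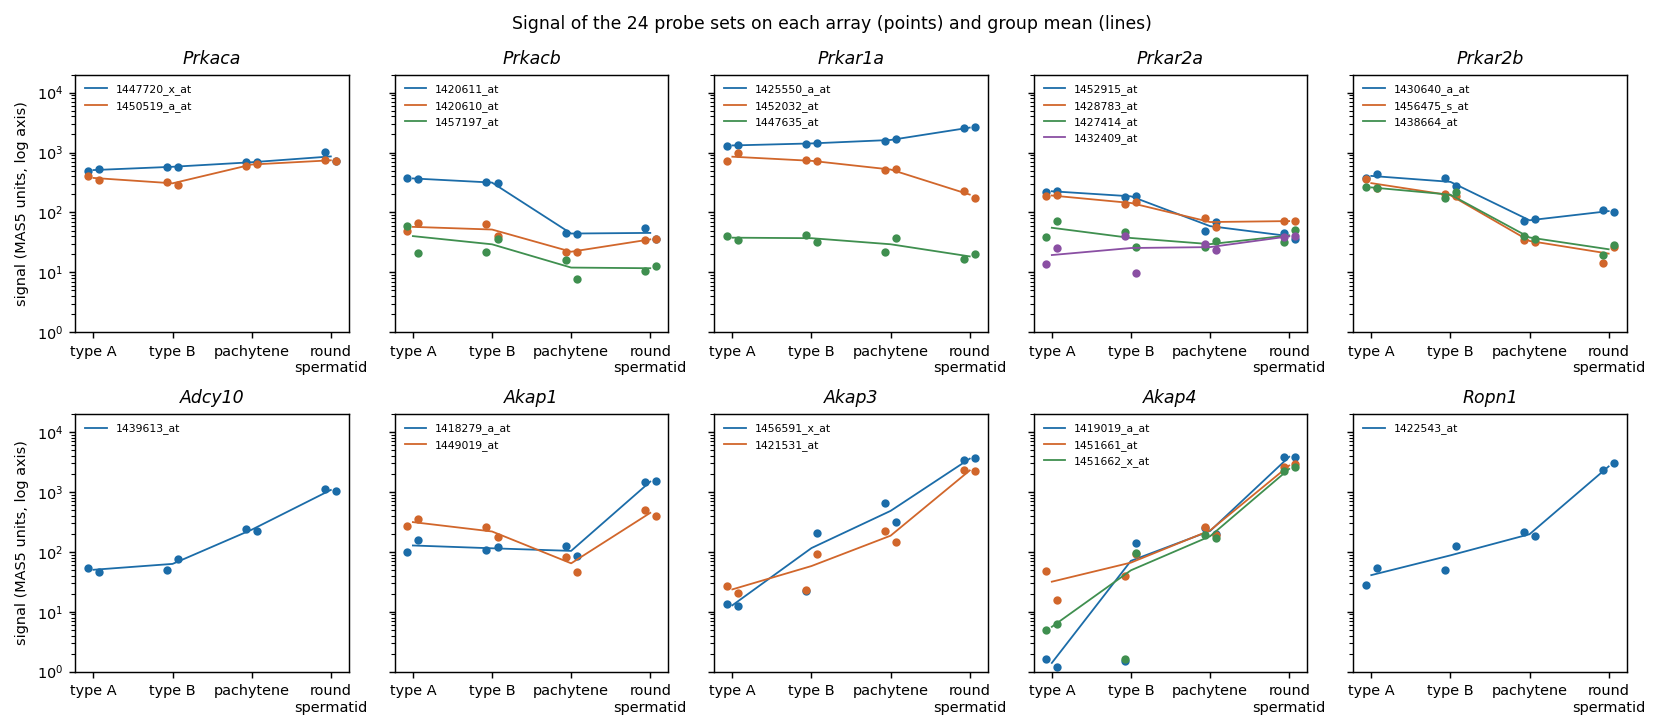
Signal of all 24 probe sets on each of the 8 arrays (points, log axis, MAS5 units) with the group means (lines), 1 panel per gene, over the 4 stages from left to right. Akap3, Akap4, Ropn1 and Adcy10 climb to the spermatid stage, Prkacb and Prkar2b drop at the pachytene stage, and the probe sets of Akap1 and Prkar1a part from each other.

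The type B replicates disagreed for the fibrous sheath genes. In replicate 2 the 7 probe sets of Adcy10, Akap3, Akap4 and Ropn1 stood at 3.36% to 7.12% of their own spermatid mean (median 4.09%), and in replicate 1 their median was 1%. The 7 spermatid marker genes had medians of 6.42% in replicate 2 and 0.603% in replicate 1. In pachytene replicates 1 and 2 the median shares were 9.51% and 7.02% for the 7 probe sets and 8.48% and 9.1% for the spermatid markers. Among those markers Tnp1, a transition protein of condensing spermatid chromatin, read 182.3 and 338.4 in pachytene cells and 3037.0 and 4396.9 in spermatids. The acrosomal protease gene Acr was the exception, at 78.5% and 86.7% of its spermatid mean in pachytene cells. Whether spermatid RNA in the pachytene and type B preparations had a part in these signals was not tested.

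**Figure D2:**
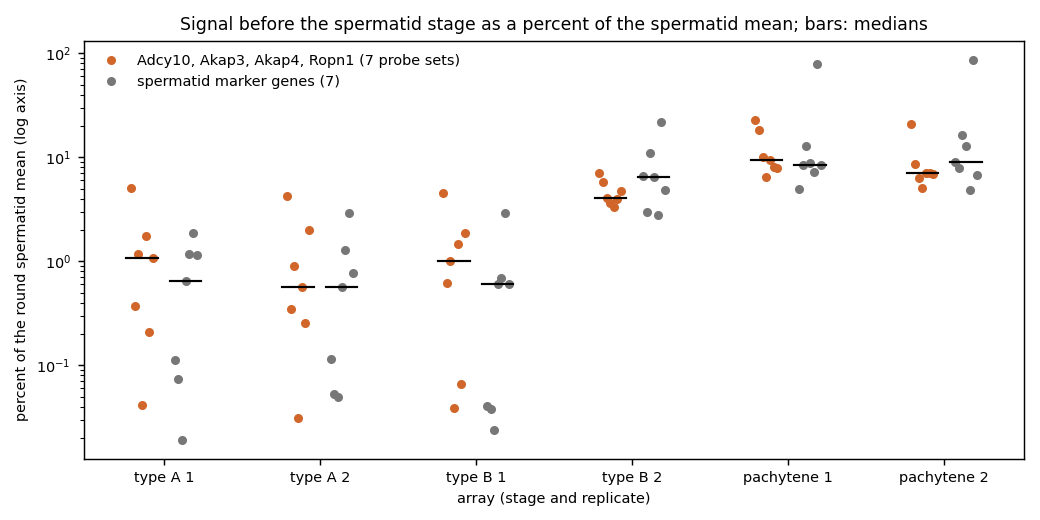
Signal on each array before the spermatid stage as a percent of the same probe set's mean in round spermatids (log axis), for the 7 probe sets of Adcy10, Akap3, Akap4 and Ropn1 (orange) and for 7 spermatid marker genes (grey), with the median of each set as a bar. Type B replicate 2 sits at medians of 4.09% and 6.42%, and type B replicate 1 at 1% and 0.603%.

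In pachytene against type B cells, the calls of these 7 probe sets, except that of Adcy10, depended on the arrays used. The changes were 2.34 for Akap3 1456591_x_at, 1.60 for Akap3 1421531_at, 1.63 for Akap4 1451661_at, 2.15 for Akap4 1451662_x_at and 1.14 for Ropn1, all called. They were larger without type B replicate 2, which stood apart for genes of later stages, at 3.61, 2.35, 2.11, 3.49 and 1.69. Without type B replicate 1 they were 1.06, 0.86, 1.15, 0.81 and 0.59, and of these only Akap4 1451662_x_at was called (limma adjusted p = 0.0328, and 0.0549 to 0.194 for the others). Without pachytene replicate 1 none of the 5 was called (limma adjusted p = 0.0726 to 0.145). Akap4 1419019_a_at was not called with both replicates (2.18, limma adjusted p = 0.0565), and read 3.76 without type B replicate 2 (6.95e-05) and 0.60 without type B replicate 1 (0.0828). Adcy10 was called either way, at 1.43 without type B replicate 1 and 1.94 without type B replicate 2.

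Akap1 anchors PKA to the outer membrane of mitochondria and is made in several splice forms, and its 2 probe sets did not move alike. Probe set 1418279_a_at read 100.2 and 154.6 in type A spermatogonia, 107.5 and 121.2 in type B, 122.7 and 84.3 in pachytene cells and 1455.3 and 1504.9 in spermatids. The spermatid arrays stood far above all others, which overlapped. The spermatid excess was 3.41 ± 0.26 log2 over type A (limma adjusted p = 4.25e-05) and 3.66 ± 0.26 over pachytene cells, while pachytene against type A cells gave -0.26 ± 0.26 (0.431), a value whose sign turned under quantile normalization and the other centrings. Probe set 1449019_at read 271.9 and 353.4 in type A, 257.0 and 179.2 in type B, 81.9 and 46.5 in pachytene cells and 490.7 and 402.0 in spermatids. Its lowest level was in pachytene cells, with a change of -2.06 ± 0.30 log2 against type A (limma adjusted p = 0.000753), and spermatids were 2.56 ± 0.30 above pachytene cells. Against type A the spermatid value of this probe set was 0.50 ± 0.30 (limma adjusted p = 0.173). The suffix _a_at marks probes shared by alternative transcripts of 1 gene. Which transcripts each probe set detects was not analysed here.

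Among the catalytic subunits, Prkaca, which encodes the catalytic subunit of sperm PKA, had signals far above the array medians at every stage. Probe set 1450519_a_at read 399.0 and 354.6 in type A spermatogonia, 326.6 and 286.8 in type B, 607.0 and 654.7 in pachytene cells and 760.0 and 724.0 in spermatids, with no overlap between spermatid, pachytene and spermatogonial arrays. It was 0.72 ± 0.19 log2 higher in pachytene (limma adjusted p = 0.0139) and 0.95 ± 0.19 higher in spermatids (0.00333) than in type A cells. Spermatids against pachytene cells gave 0.23 ± 0.19, which was not called (limma adjusted p = 0.448). The pachytene call was lost without type A replicate 2 or either pachytene array (limma adjusted p = 0.051 to 0.0835). Probe set 1447720_x_at read 486.8 and 532.8 in type A, 576.0 and 580.8 in type B, 693.7 and 684.2 in pachytene cells and 1005.8 and 716.2 in spermatids. It was called higher in spermatids against type A (0.72 ± 0.22, limma adjusted p = 0.0214), but not after quantile normalization (0.123), without type A replicate 1 (0.0837) or without spermatid replicate 1 (0.143).

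Prkacb, the other widely expressed catalytic subunit, dropped at the pachytene stage. Probe set 1420611_at read 383.1 and 356.6 in type A spermatogonia, 322.7 and 308.1 in type B, 45.1 and 44.0 in pachytene cells and 55.6 and 35.7 in spermatids. Pachytene and spermatid arrays overlapped with each other and lay well below every spermatogonial array. The change was -2.67 ± 0.22 log2 in pachytene and -2.66 ± 0.22 in spermatids against type A (limma adjusted p = 0.000151 and 5.52e-05). The dimmer probe set 1420610_at read 48.9 and 66.2 in type A, 63.5 and 40.4 in type B, 22.3 and 22.0 in pachytene cells and 34.5 and 36.7 in spermatids. It was lower in pachytene cells than in type A (-0.94 ± 0.24, limma adjusted p = 0.0104) and type B cells (-0.81 ± 0.24), the second value turning to 0.41 when arrays were centred on ribosomal protein genes. With that centring the first was -0.09 (limma adjusted p = 0.862). In spermatids against type A, 1420610_at was not called (-0.50 ± 0.24, limma adjusted p = 0.0968).

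Among the regulatory subunits, Prkar2b encodes RII beta, best known from brain and fat, and its 3 probe sets fell together. Probe set 1430640_a_at read 376.7 and 437.8 in type A spermatogonia, 372.1 and 276.5 in type B, 71.5 and 76.7 in pachytene cells and 110.0 and 100.7 in spermatids. Probe set 1456475_s_at read 356.7 and 260.6 in type A, 199.9 and 187.8 in type B, 34.2 and 32.8 in pachytene cells and 14.4 and 26.8 in spermatids, and 1438664_at had 267.9 and 256.1 in type A, 173.7 and 222.4 in type B, 40.4 and 36.2 in pachytene cells and 19.5 and 29.2 in spermatids. Every later array was below every spermatogonial array on all 3. Spermatids against type A gave -1.80 ± 0.22, -3.15 ± 0.25 and -2.79 ± 0.22 log2 in the order 1430640_a_at, 1456475_s_at and 1438664_at, and pachytene against type A -2.23 ± 0.22, -2.70 ± 0.25 and -2.36 ± 0.22 (limma adjusted p = 0.000181 to 0.000209 for the pachytene values). With centring on ribosomal protein genes the spermatid value of 1430640_a_at was -0.76 and was not called (limma adjusted p = 0.108).

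Prkar2a encodes RII alpha, the regulatory subunit that binds the fibrous sheath anchors in mature sperm, and its transcripts were lower in later cells on the 2 brighter of its 4 probe sets. Probe set 1452915_at read 221.0 and 231.0 in type A spermatogonia, 184.4 and 187.7 in type B, 48.3 and 70.1 in pachytene cells and 44.8 and 35.8 in spermatids. Probe set 1428783_at read 190.4 and 193.1 in type A, 137.8 and 150.1 in type B, 82.4 and 56.2 in pachytene cells and 72.8 and 70.9 in spermatids. On both, the later arrays were below all spermatogonial arrays. The changes in spermatids against type A were -2.11 ± 0.22 and -1.24 ± 0.22 log2 (limma adjusted p = 0.000133 and 0.00149). The second was not called when arrays were centred on ribosomal protein genes (-0.21, limma adjusted p = 0.682). In pachytene against type A cells they were -1.70 ± 0.22 and -1.30 ± 0.22, both called. With that centring these were -0.85 and -0.46, not called (limma adjusted p = 0.0627 and 0.333). Against type B, the called pachytene changes of -1.44 and -0.92 became -0.22 and 0.30 with that centring (0.621 and 0.513). The remaining probe sets, 1427414_at and 1432409_at, ran from 26.1 to 72.5 and from 9.9 to 41.2 over the 8 arrays and were called in no comparison.

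Prkar1a encodes RI alpha, the regulatory subunit found in nearly all tissues, and its probe sets disagreed in direction. Probe set 1425550_a_at read 1304.3 and 1320.6 in type A spermatogonia and 1371.0 and 1466.7 in type B. It read 1532.3 and 1707.7 in pachytene cells and 2546.1 and 2661.5 in spermatids. The arrays of different stages did not overlap, but the steps before the spermatid stage were not called. Type B against type A gave 0.11 ± 0.19 and pachytene against type B 0.19 ± 0.19 (limma adjusted p = 0.868 and 0.437). Pachytene against type A gave 0.30 ± 0.19 (0.209). Probe set 1452032_at went the opposite way, at 711.4 and 993.1 in type A, 738.5 and 715.8 in type B, 507.1 and 534.2 in pachytene cells and 224.9 and 172.6 in spermatids. Spermatids differed from type A by 0.98 ± 0.19 log2 on the first (limma adjusted p = 0.00245) and by -2.01 ± 0.24 on the second (0.00023). Against pachytene cells the spermatid changes were 0.68 ± 0.19 (limma adjusted p = 0.0302) and -1.33 ± 0.24 (0.00468). The rise in this step was lost with any 1 of the 4 pachytene and spermatid arrays left out (limma adjusted p = 0.0938 to 0.175) and with centring on ribosomal protein genes (0.117). In pachytene against type A cells 1452032_at was called at -0.68 ± 0.24 (limma adjusted p = 0.0393), a value that turned to 0.17 with that centring. The dim probe set 1447635_at read 40.6 and 35.4 in type A, 42.4 and 32.1 in type B, 21.9 and 37.1 in pachytene cells and 16.6 and 20.4 in spermatids. Its spermatid change against type A was -0.65 ± 0.24 (limma adjusted p = 0.0418), which turned to 0.39 with that centring.

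**Figure D3:**
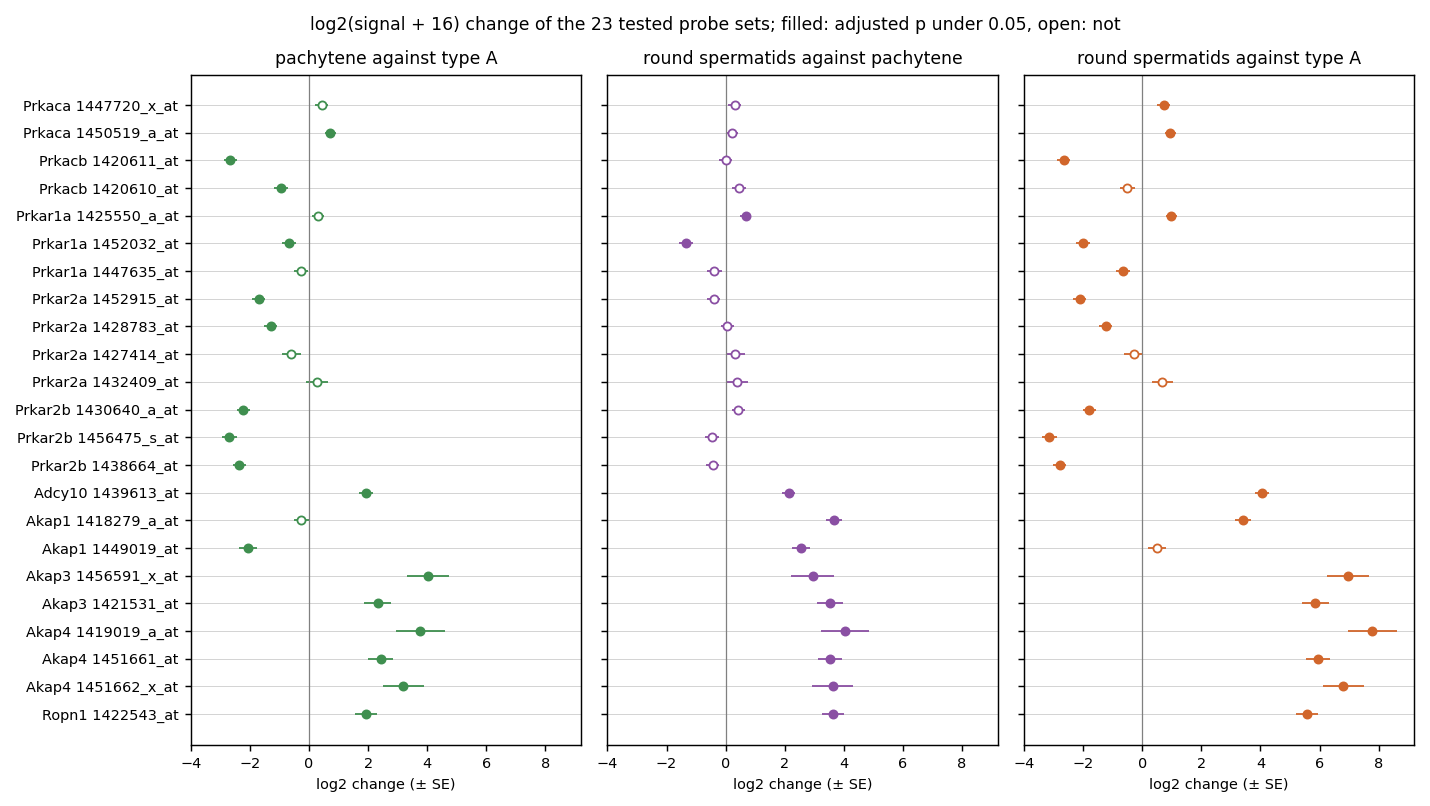
Change of log2(signal + 16) with its standard error for each of the 23 tested probe sets in pachytene against type A cells, round spermatids against pachytene cells, and round spermatids against type A cells. Filled points have an adjusted p under 0.05. The probe sets of Akap3, Akap4, Ropn1 and Adcy10 lie right of 0 in all 3 panels, and those of Prkar2b left of 0 against type A.

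Where Prkacb, Prkar2a and Prkar2b fell, markers of somatic testis cells were lower too. Sums of 8 peritubular, stromal and endothelial markers were 774.5 and 1047.2 in pachytene cells and 1178.8 and 1050.0 in spermatids. On the 4 spermatogonial arrays the sums were 8792.3 to 13552.8. Of the 8 markers, 7 were called lower in pachytene than in type A cells, beside 34.7% of all tested probe sets. The 10 Sertoli cell markers summed to 1885.1 and 2610.0 in pachytene cells and 691.0 and 886.6 in spermatids, against 4553.5 to 8182.7 on spermatogonial arrays, and 9 of 10 were lower in pachytene than in type A cells. For 5 named Leydig cell markers the sums were 573.1 and 1031.8 in pachytene cells and 137.7 and 135.7 in spermatids, against 790.8 to 1615.7 in spermatogonia, with 2 of 5 lower in pachytene than in type A cells. Macrophage and blood markers summed to 220.9 to 459.0 on later arrays, against 523.7 to 857.5 on spermatogonial ones, and 3 of 5 tested were lower in pachytene than in type A cells. No marker of these lists was at 0 on a later array. The part of somatic RNA in the spermatogonial levels of the subunits was not tested.

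Pairs of genes were then compared within each array, which removes the scaling of the array. For each gene the probe set with the highest mean was used, and only the change of the difference between stages can be read. Prkaca minus Prkacb was 0.33 and 0.56 log2 in type A spermatogonia, 0.81 and 0.88 in type B, 3.54 and 3.54 in pachytene cells and 3.84 and 3.82 in spermatids. The balance between the 2 probe sets used, Prkaca 1447720_x_at and Prkacb 1420611_at, thus shifted by 3.38 in spermatids against type A. Most of the shift lay between type B and pachytene cells. In spermatids against type A, Prkacb 1420611_at changed by -2.66 and Prkaca 1447720_x_at by 0.72. The dimmer Prkacb 1420610_at was not called there (-0.50 ± 0.24, limma adjusted p = 0.0968), and the balance was not computed with it. An exact permutation test that re-pairs the 8 arrays in every possible way asks whether the difference varies over the 4 stages, not between spermatids and type A alone. This exact test gave p = 0.00952, the smallest it can give (0.0143 adjusted over the 3 pairs of genes tested). For Prkar2a minus Prkar1a the differences were -2.48 and -2.44 in type A, -2.79 and -2.86 in type B, -4.59 and -4.32 in pachytene cells and -5.40 and -5.69 in spermatids. The shift in spermatids against type A was -3.09, and the exact permutation test over the 4 stages gave p = 0.00952 (0.0143 adjusted). This shift was measured with Prkar1a 1425550_a_at: with 1452032_at in its place, a choice made after seeing the data, the shift was -0.10, and the adjusted p of the exact permutation test over the 4 stages was 0.133. For the 2 anchors of the sheath that test was not passed. Akap4 minus Akap3 was -0.74 and -0.72 in type A, -1.13 and -0.53 in type B, -1.33 and -0.63 in pachytene cells and 0.16 and 0.06 in spermatids, with p = 0.133 over the 4 stages (exact permutation test, adjusted 0.133). The shift in spermatids against type A was 0.83, but 1.74 with a pseudocount of 4 and 0.34 with a pseudocount of 64, under which the test over the 4 stages was passed (adjusted p = 0.00952).

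**Figure D4:**
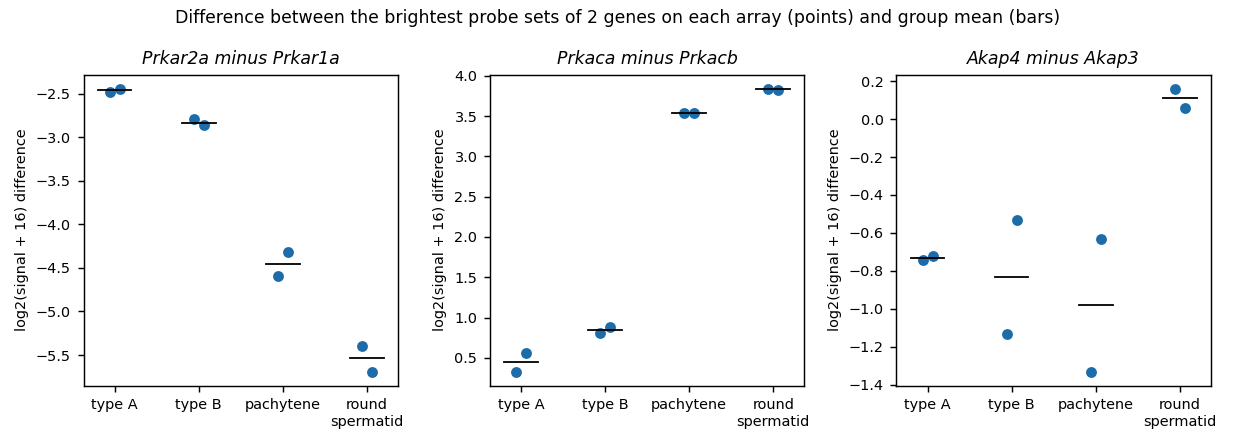
Difference of log2(signal + 16) between the brightest probe sets of 2 genes on each array (points) with group means (bars), for Prkar2a minus Prkar1a, Prkaca minus Prkacb and Akap4 minus Akap3, over the 4 stages. Each panel has its own vertical range. The first 2 panels shift by -3.09 and 3.38 in round spermatids against type A spermatogonia.

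Counted over the members, 11 probe sets were higher and 8 lower in spermatids against type A, where 21.9% of all tested probe sets were higher and 41.7% lower. Pachytene against type A cells gave 8 higher and 9 lower, beside 22% and 34.7% of all, and pachytene against type B gave 7 and 8, beside 20.3% and 29.5%. Spermatids against pachytene cells gave 10 higher and 1 lower, beside 11.7% and 15.7%. The median change of the 23 in this last comparison was 0.43, against -0.09 over all probe sets tested. When arrays were centred on ribosomal protein genes the counts became 13 higher and 5 lower in spermatids against type A, 11 and 5 in pachytene against type A, and 14 and 1 in pachytene against type B. That centring also raised the median change of all tested probe sets, by 1.035, 0.846 and 1.22 in this order. The share of all probe sets called under it was not counted, so these counts have no background beside them. These comparisons share arrays (type A, type B or pachytene) and are not independent of each other. Over the 4 stages together, 19 of the 23 differed by the moderated F test, beside 69.9% of all. Type B against type A gave 0 higher and 0 lower among the 23 (0% of all probe sets either way), with a smallest adjusted p of 0.613 for any of the 23. At an unadjusted p under 0.05 there were 1 higher, Akap3 1456591_x_at (1.69 ± 0.72), and 1 lower, Prkar2b 1456475_s_at, beside 1121 and 1201 of all. In type B against type A cells, Akap3 1456591_x_at changed by 2.96 and Akap4 1419019_a_at by 3.16 without type B replicate 1. Without type B replicate 2 these values were 0.41 and 0.01.

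Other fibrous sheath genes rose as well. Of a list of 9 sheath and related docking proteins, 8 genes were tested. All 8 were called higher in spermatids than in type A cells, beside 21.9% of all tested probe sets. The same 8 were called higher in pachytene than in type A cells, beside 22% of all. Whether spermatid RNA in the pachytene preparations had a part in the pachytene calls was not tested. Cabyr, a calcium-binding sheath protein, read 2687.3 and 2502.5 in spermatids and 6.8 and 33.6 in type A (6.28 ± 0.49 log2, limma). Gapdhs, the sperm form of a glycolytic enzyme that is bound to the sheath, read 3463.2 and 3745.6 in spermatids and 80.0 and 62.5 in type A (5.38 ± 0.46), and Txndc2, a sperm thioredoxin, read 1501.0 and 1418.0 in spermatids and 6.6 and 4.8 in type A (6.09 ± 0.47). The ropporin relative Ropn1l was already high in pachytene cells. It had 4067.8 and 4615.9 in pachytene cells and 57.7 and 67.8 in type A (5.79 ± 1.13, limma adjusted p = 0.00315). At 4792.7 and 5175.7 in spermatids it differed from pachytene cells by 0.20 ± 1.13 (limma adjusted p = 0.928). Its type B duplicates, which enter the same standard error, read 53.4 and 1487.9.

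Inhibitors and minor subunits of PKA were 4 tested genes. In spermatids 3 were higher and 1 lower than in type A cells, beside 21.9% and 41.7% of all tested probe sets. Pkib and Pkia, which encode small inhibitor proteins of the catalytic subunit, changed in opposite directions. Pkib read 797.1 and 1234.6 in spermatids and 1.9 and 2.4 in type A (5.80 ± 0.45 log2), and Pkia read 11.3 and 1.3 in spermatids and 102.7 and 148.9 in type A (-2.69 ± 0.33). The third inhibitor gene, Pkig, read 1216.4 and 1295.7 in spermatids and 254.3 and 232.7 in type A (2.29 ± 0.27), and the neuronal regulatory subunit gene Prkar1b 157.2 and 177.1 in spermatids and 106.5 and 109.9 in type A (0.56 ± 0.19).

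Other AKAP genes went in both directions: of 16 tested, 4 were higher and 8 lower in spermatids than in type A cells, beside 21.9% and 41.7% of all tested probe sets. In pachytene against type A cells 1 was higher and 10 lower, beside 22% and 34.7%. Akap14, an anchor of cilia and the sperm axoneme, had 373.8 and 258.6 in spermatids and 17.2 and 29.4 in type A (3.08 ± 0.33), and no call in pachytene against type A (0.39 ± 0.33, limma adjusted p = 0.344). Sphkap, an anchor for RI subunits, read 10.2 and 23.0 in type A spermatogonia and 27.0 and 380.0 in type B. It read 1825.5 and 1857.1 in pachytene cells and 1039.8 and 879.8 in spermatids, a step that was not called (-0.93 ± 0.84, limma adjusted p = 0.479). Akap2 and Akap13 fell in spermatids against type A, with changes of -3.63 ± 0.34 and -2.39 ± 0.22. Of 7 membrane adenylyl cyclase genes tested, 0 were higher and 5 lower in spermatids than in type A cells. In spermatids against pachytene cells 1 was higher and 1 lower, beside 11.7% and 15.7% of all tested probe sets. The higher one was Adcy3 (0.78 ± 0.21, limma adjusted p = 0.0265), named here after its values were seen. Adcy7 read 27.2 and 35.7 in spermatids and 983.3 and 1530.8 in type A (-4.72 ± 0.27), and Adcy9, Adcy5 and Adcy2 changed by -2.44 ± 0.25, -1.81 ± 0.30 and -0.94 ± 0.21.

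**Figure D5:**
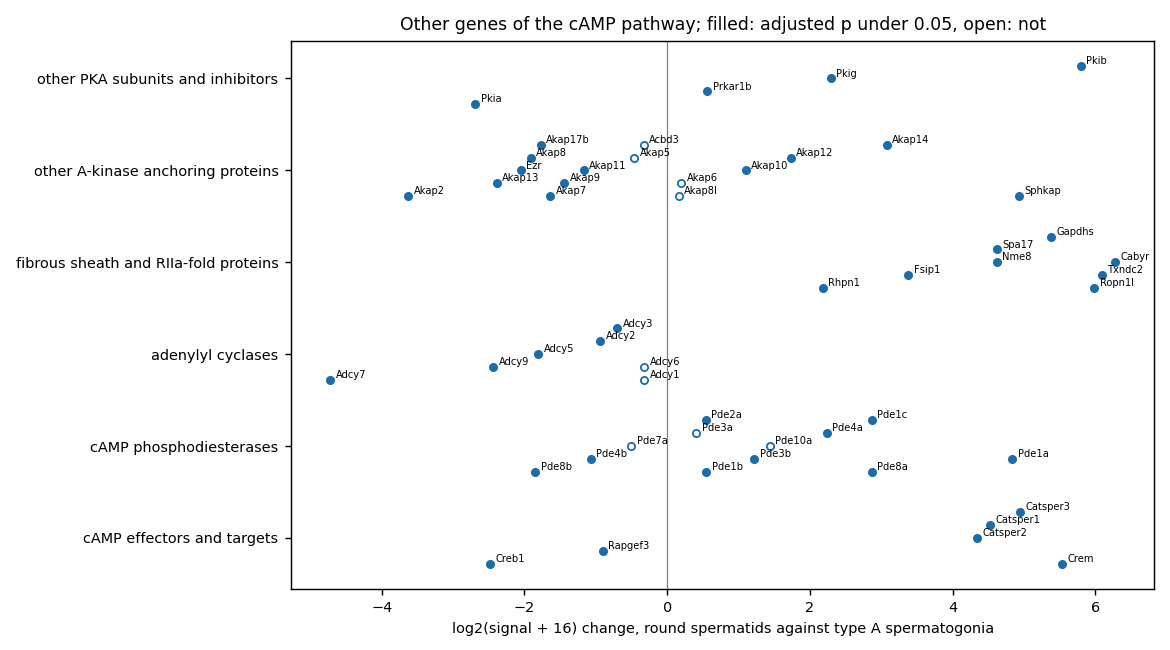
Change of log2(signal + 16) in round spermatids against type A spermatogonia for the other genes of the cAMP pathway, 1 row per list; filled points have an adjusted p under 0.05. All 8 fibrous sheath genes lie right of 0, and 5 of 7 membrane adenylyl cyclases are filled points left of 0.

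Among 14145 genes compared over the 8 arrays by Pearson's r of log2(signal + 16), given as a description because all points share the same arrays, the patterns nearest to Akap4 were those of Iqcf3 (r = 0.9990), Gtsf1l (0.9987) and Hils1 (0.9987), the last a histone-like protein of spermatid chromatin. Nearest to Adcy10 were Zfp13 (0.9982), Hk1 (0.9974), a hexokinase, and Fam161a (0.9974). For Prkar1a, on its brightest probe set, they were 4930503B20Rik (0.9977), 4930443O20Rik (0.9974) and Cpa6 (0.9968).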

How the data were processed

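Total RNA of 8 mouse germ cell preparations, 2 for each of 4 stages, was measured on Mouse 430 2.0 arrays. The authors deposited 1 linear intensity per probe set, which per the submitters' processing notes is MAS5 output (version not given in the sources used here). With 2% of probe sets trimmed at each end, every array averaged 125.0, so changes are relative to the rest of the array. Of 45101 probe sets, 64 were controls; 34945 named 1 gene, 932 several and 9160 none, from the platform annotation updated through Entrez identifiers (34741 matched). No probe set of the 10 genes was shared with another gene.

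Probe sets above their array's median on at least 2 of 8 arrays (28623) were fitted as log2(signal + 16) with limma 3.58.1 in R 4.3.3 (lmFit over 4 groups, eBayes). The scale understates changes of dim probe sets. The fit had 4 residual and 3.91 prior degrees of freedom, tests were two-sided, and p-values were adjusted by Benjamini-Hochberg within each comparison. The number of arrays limits the precision, and p-values measure the spread between preparations pooled over stages. Pairs of genes were tested by exact permutation. All probe sets of the 10 genes were named, with up to 4 genes of each pathway list by size of change in spermatids against type A, and the 3 nearest patterns of Akap4, Adcy10 and Prkar1a. Pde8a, Pde1c, Pde4a and Creb1 steps outside that comparison were chosen after their values were seen. Members and lists were chosen with earlier results of these data known. Replicate numbers were not used as pairs: deviations of same-numbered arrays correlated at -0.271 to 0.351. Pseudocounts 4 and 64, no filter, other scalings, 1 probe set per gene, the replicate block and leaving out arrays were the alternatives.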

Additional observations from a re-analysis of the deposited data

How the results depend on the processing

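MAS5 scaling fixes the average of each array, and centring on 25 ribosomal protein genes moved the median of all probe sets by 1.035 in spermatids and 0.846 in pachytene cells against type A, by 1.22 in pachytene cells against type B, by 0.189 between spermatids and pachytene cells and by -0.374 between type B and type A. Quantile normalization and the 75th percentile moved the first 3 of these by 0.174 to 0.406. Ribosomal centring ended or turned more of the 62 called single changes than any 1 left-out array. Signals near the dimmest values of an array give no reliable order. Shares of all probe sets called in the alternative runs were not counted, so the counts below have no background beside them. Counts of called probe sets with ribosomal centring were 14 higher and 1 lower in pachytene against type B, 5 lower in pachytene against type A and 5 lower in spermatids against type A. With 1 probe set per gene (10 genes, fewer by construction) they were 4 higher and 3 lower in pachytene against type B, 4 and 3 in pachytene against type A, 6 and 0 in spermatids against pachytene, 7 and 3 in spermatids against type A, and 9 in the F test. Leaving out 1 array at a time, the F test called 17 to 20, pachytene against type A 7 to 8 higher and 7 to 9 lower, pachytene against type B 2 to 8 higher and 6 to 8 lower, spermatids against pachytene 6 to 10 higher and 1 to 1 lower, spermatids against type A 10 to 12 higher and 7 to 8 lower, and type B against type A 0 to 4 higher (4 without type B replicate 1) and 0 to 0 lower. Pachytene against type B fell to 3 higher without type B replicate 1, 2 without pachytene replicate 1 and 4 without either spermatid array, and spermatids against pachytene to 6 higher without spermatid replicate 2. The shift in spermatids against type A ran from -3.23 to -2.94 for Prkar2a minus Prkar1a, 3.27 to 3.50 for Prkaca minus Prkacb and 0.78 to 0.88 for Akap4 minus Akap3, which was 1.74 with a pseudocount of 4 (exact permutation p over the 4 stages 0.162, adjusted) and 0.34 with a pseudocount of 64 (0.00952). The added alternative with Prkar1a 1452032_at gave -0.10.

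Signs turned with ribosomal centring for Prkacb 1420610_at (0.41) and Prkar2a 1428783_at (0.30) in pachytene against type B, Prkar1a 1452032_at (0.17) and Akap1 1418279_a_at (0.59) in pachytene against type A, Prkar1a 1447635_at in spermatids against type A (0.39) and Adcy10 in type B against type A (-0.14, and -0.02 to 0.49 with an array left out, negative without type B replicate 2). Akap1 1418279_a_at in pachytene against type A also turned with quantile normalization (0.17), the 75th percentile (0.12) and without type A replicate 2 (-0.53 to 0.02 with an array left out). The cause was not tested. Of 62 called single changes, 47 kept sign and call with ribosomal centring, 58 with the 75th percentile and 57 with quantile normalization. The replicate block, though the numbers pair no samples, left 60, with 8 lower in pachytene against type A, 7 lower in spermatids against type A and 19 in the F test. The calls lost with it were Prkar1a 1452032_at in pachytene against type A (limma adjusted p = 0.0555) and Prkar1a 1447635_at in spermatids against type A (0.0573).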

Other observations

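Enzymes that break down cAMP and genes that respond to it also changed over the stages. Of 12 tested phosphodiesterase genes from a list of 16, 7 were higher and 2 lower in spermatids than in type A cells, beside 21.9% and 41.7% of all tested probe sets. Pde1a, a calmodulin-dependent phosphodiesterase, read 1433.4 and 1581.6 in spermatids and 35.3 and 39.4 in type A (4.84 ± 0.40 log2 by limma), with its larger step between spermatids and pachytene cells (3.18 ± 0.40). Pde4a, which is specific for cAMP, read 397.7 and 349.2 in spermatids and 68.0 and 65.1 in type A (2.24 ± 0.20), and was not called in pachytene against type A cells (-0.08 ± 0.20). Pde8a and Pde1c were instead brightest in pachytene cells, at 2157.8 and 2249.6 for Pde8a and 578.1 and 470.2 for Pde1c. In spermatids they read 1845.9 and 1337.1 for Pde8a and 275.9 and 219.7 for Pde1c, not called against pachytene cells (-0.48 ± 0.30 and -1.03 ± 0.46).

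Of 6 tested cAMP effectors and targets from a list of 10, 4 were higher and 2 lower in spermatids than in type A cells, beside the same background of 21.9% and 41.7%. Crem, a transcription factor that drives spermatid genes, read 23.9 and 10.9 in type A, 601.6 and 701.1 in pachytene cells and 1346.0 and 1693.1 in spermatids (5.54 ± 0.69 in spermatids against type A). Its relative Creb1 was lower in pachytene than in type A cells (-1.32 ± 0.30, limma adjusted p = 0.00626) and lower again in spermatids than in pachytene cells (-1.15 ± 0.30, 0.0232). Catsper1, Catsper2 and Catsper3, subunits of the sperm calcium channel, exceeded type A by 4.52 ± 0.26, 4.34 ± 0.45 and 4.95 ± 0.31 in spermatids.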
